A study of Mus musculus with 8 samples.

Results

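The comparison of TKO embryonic stem (ES) cells with their control holds 2384 H2A.X domains, all lines of 1 of the 6 domain lists of the series, which together hold 25499. Of these, 2071 were marked as enriched in the control library (the control side) and 313 as enriched in the TKO library (the TKO side). On the 19 autosomes the sides held 1989 and 280 domains. The control was wild type and the knockout had the genotype TKO, a name that the labels do not spell out. Both were 129/Ola mouse ES cells, grown on gelatin in serum medium with 15% fetal bovine serum and 1000 units of LIF, the cytokine that holds mouse ES cells in self-renewal. Chromatin was cut by micrococcal nuclease without crosslinking, and nucleosomes were pulled down with 0.5 µg of anti-H2A.X. Each condition had 1 library, so no difference between control and TKO has a replicate check and no p-value is given. Whether either line is a single clone is not given in the sources used here.

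H2A.X is a variant of the core histone H2A that is built into nucleosomes throughout the genome. Its tail is phosphorylated around DNA breaks, which marks the flanking chromatin for repair factors. The antibody label names H2A.X and no phosphorylated form, so the assay concerns where the variant lies. The series title places the work in the setting of DNA demethylation in ES cells, a state that differs between culture media and is reached genetically by loss of the DNA methyltransferases.

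Each domain is a run of 1 kb bins with a mark for its side and a pair of scores, a signed one and one that adds up over the bins. The signed score, which carries no stated unit, rises toward the control and falls toward TKO. Its values parted the sides completely. TKO-side domains scored -3.00 at the highest, and control-side domains -1.98 at the lowest and 15.1 at the highest. Most of the control side nevertheless scored below 0, since 1842 domains did so, 209 scored above 0 and 20 scored exactly 0. The control side thus consists mainly of places that scored below 0 but above the TKO domains. The scaling behind the score is not given, so 0 cannot be taken as equal signal in both libraries. Coverage below is the share of a chromosome's length, as far as the 6 lists reach it, that lies in domains of a side.

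Domains marked as higher in the control were broad and lay on every autosome, and those marked as higher in TKO were short and sparse. On the autosomes the control side covered 695 Mb, or 28.5% of all 1 kb bins, and the TKO side 9.87 Mb, or 0.404%. The control domains had a median length of 217 kb with quartiles of 115 and 406 kb. The TKO domains had a median of 16 kb with quartiles of 8 and 30 kb. Counted over all chromosomes in the list, the bins in domains were 32.4% for the control side and 0.431% for the TKO side.

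Chromosome 11 stood far from the rest of the autosomes on the control side. Its 87 control domains covered 115 of 119 Mb, or 97.1%, while the remaining autosomes without chromosome 6, 50 to 100 Mb, were covered at 23.7%. Across the 17 autosomes other than 6 and 11, control coverage ran from 16.6% on chromosome 7 to 36.7% on chromosome 1, with a median of 21.8%. Chromosome 8 was next to the top of these, at 36.2%. The number of domains did not set chromosome 11 apart, at 73.2 per 100 Mb against a median of 76.4 over those 17. Their length did, with a median of 737 kb and a longest domain of 9368 kb, where the medians of the 17 ran from 148 to 307 kb and their longest domain was 2895 kb.

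**Figure D1:**
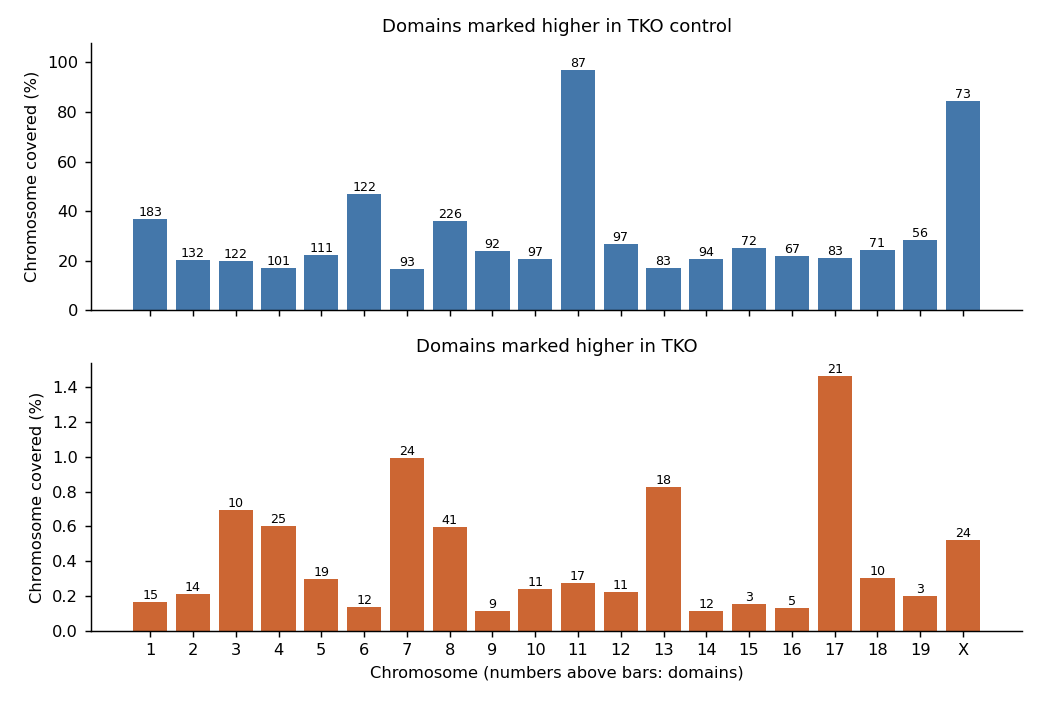
Share of each autosome and of X (x axis) covered by domains of the control side (upper panel) and of the TKO side (lower panel), in percent, with the number of domains above each bar. Chromosome 11 reaches 97.1% on the control side, and chromosome 17 leads the TKO side at 1.46%.

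The cover of chromosome 11 was even along its length. In 23 windows of 5 Mb the control side covered 93.1% at the lowest, 97.7% at the median and 100% at the highest. Its 4 longest domains were chromosome 11, 35607001 to 44975000 (9368 kb, score -0.09), 61566001 to 70189000 (8623 kb, score -0.24), 96944001 to 105022000 (8078 kb, score -0.44) and 107473001 to 114875000 (7402 kb, score -0.16). The gaps between its control domains had a median of 23 kb, against 518.5 kb on the other autosomes, and 10 of 86 were 100 kb or longer. The longest was 231 kb, at 5953001 to 6184000, followed by 183 kb at 88651001 to 88834000, which held a TKO domain of 14 kb. In all, 3.39 Mb of chromosome 11 lay outside the control side, of which 0.323 Mb were TKO domains and 3.07 Mb carried no domain.

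On chromosome 6 the dense cover lay in a stretch of the chromosome, with lower cover on both sides of it. Between 50 and 100 Mb the control side covered 84.3%, and outside that segment 28.2%. The segment was chosen with its coverage known, so this contrast is a description. Its 10 windows of 5 Mb ran from 64.5% to 98.5% with a median of 84.6%, while the 10 windows below it had a median of 21.2% and the 10 above it 34.3%. Of 431 windows on the other 17 autosomes, 1 reached 80%, at chromosome 1, 125 to 130 Mb (84.1%). The median over those 431 was 21.9%. Chromosome 6 windows close to the segment lay above that, at 59.9% from 45 to 50 Mb and, in the highest of the first 2 windows above the segment, 54.96%.

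The edges of the stretch were uneven at 1 Mb. Coverage was 2.20% from 44 to 45 Mb, 36.0% from 45 to 46 Mb and 80.7% from 46 to 47 Mb. It was 56.4% and 50.9% in the next 2 windows, and it was 100% in each window from 52 to 56 Mb. On the far side it was 84.9% from 97 to 98 Mb, 46.2% from 98 to 99 Mb and 8.50% from 99 to 100 Mb, and a single window in the next 10 Mb reached 90%. The drop falls at the longest gap in the segment, 98462001 to 99915000, at 1453 kb. It is not among the 31 gaps between segment domains counted below, since the domain at its far end has its midpoint above 100 Mb. The control domain across the 50 Mb edge was 49247001 to 50897000 (1650 kb, score -0.66), and the last one below it was 48646001 to 48978000 (332 kb, score -0.59). At the 100 Mb edge the domain across was 99915001 to 100195000 (280 kb, score -0.79) and the next 100941001 to 101136000 (195 kb, score -0.61). The longest domains within were 78169001 to 83828000 (5659 kb), 51079001 to 56081000 (5002 kb) and 89160001 to 93522000 (4362 kb).

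**Figure D2:**
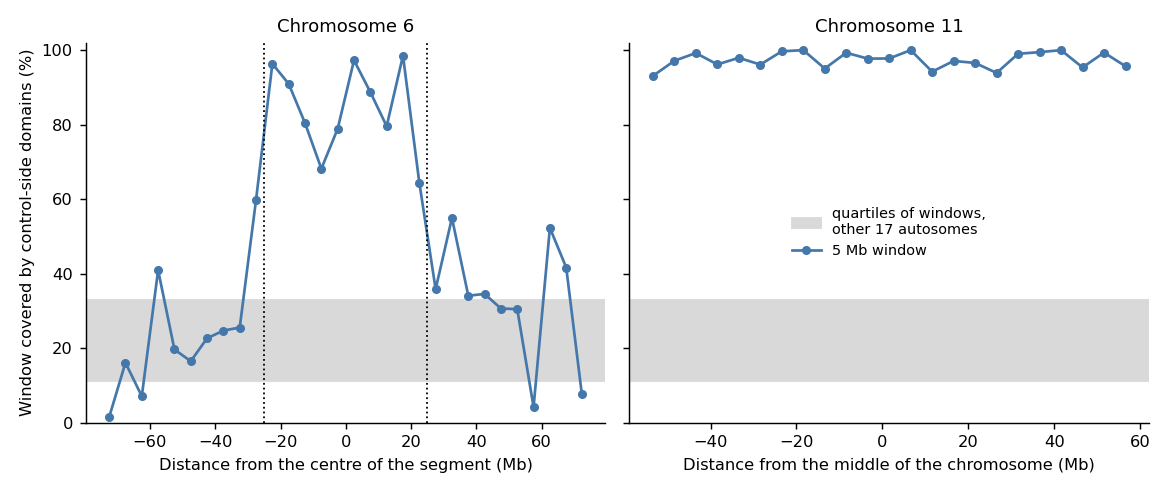
Control-side coverage in 5 Mb windows (y axis, percent) along chromosome 6, as distance in Mb from the centre of its 50 Mb segment, and along chromosome 11, as distance in Mb from its middle. Dotted lines mark the segment, and the grey band runs between the quartiles of the windows of the other 17 autosomes, 11.3% and 32.9%; every window of chromosome 11 and of the segment lies above the band.

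The chromosome 6 segment was covered less continuously than chromosome 11, with a median gap of 157 kb against 23 kb and 21 of 31 gaps of 100 kb or longer against 10 of 86, and it also differed in score. Control domains on chromosome 11 had a median signed score of -0.21 (quartiles -0.40 and -0.03), those in the segment -0.65 (quartiles -0.68 and -0.59), and those on the other autosomes -0.57 (quartiles -0.71 and -0.36). Scores above 0 were seen in 19 of 87 domains on chromosome 11, in 0 of 32 in the segment and in 185 of 1870 elsewhere. Over the 17 autosomes other than 6 and 11, median scores ran from -0.64 on chromosome 12 to -0.45 on chromosome 8, so chromosome 11 lay outside their range.

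The signed score of a control domain depended strongly on its length, so domains were also compared within classes of length, which were chosen after the scores were seen. On the other autosomes the median fell off from 2.81 in 45 domains of up to 10 kb to -0.15 in 257 domains of over 50 to 100 kb, -0.67 in 691 domains of over 200 to 500 kb and -0.78 in 49 domains over 1000 kb. On chromosome 11 long domains did not follow that course. Its median was -0.24 in 14 domains of over 200 to 500 kb, -0.35 in 19 domains of over 500 to 1000 kb and -0.24 in 35 domains over 1000 kb. These lay 0.43, 0.40 and 0.54 above the other autosomes in turn. In domains of over 100 to 200 kb the difference was 0.15, with 8 domains on chromosome 11.

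No other autosome with at least 3 domains reached chromosome 11 in these classes. At over 200 to 500 kb the medians of the 18 other autosomes ran from -0.70 to -0.57, and at over 500 to 1000 kb from -0.81 to -0.55. Above 1000 kb the medians of 10 autosomes ran from -0.84 to -0.60. Chromosome 8 was the highest of them in each of these 3 classes. The chromosome 6 segment stayed near the other autosomes, with -0.59 in 7 domains of over 200 to 500 kb, -0.74 in 4 domains of over 500 to 1000 kb and -0.66 in 17 domains over 1000 kb. In the last class it lay 0.12 above them, a shift smaller than that of chromosome 11.

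**Figure D3:**
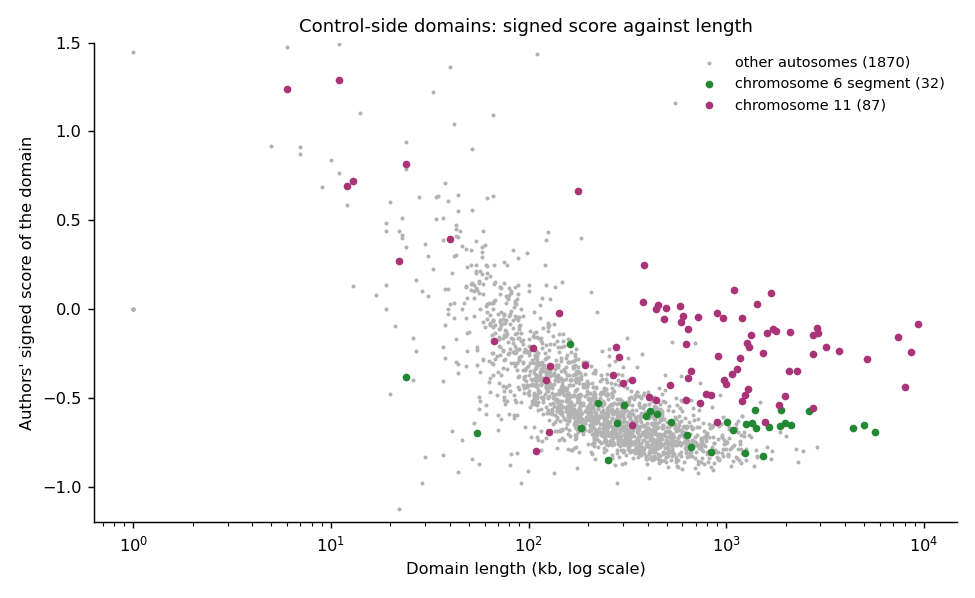
Signed score given by the authors (y axis, no unit stated) against length in kb (x axis, log scale) for control-side domains on chromosome 11, in the chromosome 6 segment and on the other autosomes; each point is a domain, and 45 of 1989 lie beyond the plotted range of -1.2 to 1.5. Long domains of chromosome 11 lie above the grey cloud, with a median of -0.24 over 1000 kb against -0.78 elsewhere, and those of the segment near it at -0.66.

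A cut on the same scores restates the score differences between these places and does not adjust for length. Control domains had a median length of 737 kb on chromosome 11, 1041 kb in the segment and 210.5 kb on the other autosomes. When the 50% of control domains with the highest scores were kept, at -0.57 or above, chromosome 11 kept 82 of 87 domains (94.3%, Wilson 95% interval 87.2% to 97.5%) and a coverage of 94.6%. The chromosome 6 segment kept 6 of 32 (18.8%, interval 8.89% to 35.3%) and a coverage of 8.0%. The other autosomes kept 920 of 1870 (49.2%, interval 46.9% to 51.5%) and a coverage of 5.87%, or 133 of the 538 Mb that the control side covered there. X, covered at 84.5% by the whole control side, kept 24 of 73 domains and a coverage of 2.50%, closer to the values of the segment than to those of chromosome 11. Intervals on shares of domains cover counting error only.

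Chromosome 8 differed from the remaining autosomes in another way, by the number of its domains on both sides. It held 226 control domains, 172 per 100 Mb, where the next of the 17 autosomes, chromosome 19, held 96.1 per 100 Mb. Its control domains had the shortest median length of these chromosomes, 148 kb, and 38 of them (16.8%) scored above 0, the highest share of the 17. That share does not adjust for length. Its median score was 2.73 up to 10 kb, 0.25 to 50 kb, -0.24 to 100 kb and -0.45 to 200 kb. The other autosomes, with chromosome 8 among them, had 2.81, 0.27, -0.15 and -0.46 in turn. Chromosome 8 was the highest of them only in the classes over 200 kb given above. It also held 41 TKO domains, 31.1 per 100 Mb, followed by chromosome 17 with 22.8. These TKO domains were small, with a median of 16 kb and a longest of 58 kb at chromosome 8, 22612001 to 22670000. They covered 0.595% of the chromosome, less than on chromosomes 17, 7, 13, 3 and 4.

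On the remaining autosomes the longest control domains were chromosome 1, 125209001 to 128104000 (2895 kb, score -0.78), chromosome 15, 68510001 to 70948000 (2438 kb, score -0.80), chromosome 13, 70744001 to 73061000 (2317 kb, score -0.86) and chromosome 19, 50139001 to 52395000 (2256 kb, score -0.79). All 4 scored below the median of control domains. The highest control scores belonged to very short domains instead, at chromosome 8, 10643001 to 10644000 (1 kb, score 15.1), chromosome 11, 73794001 to 73796000 (2 kb, score 11.8) and chromosome 7, 15713001 to 15714000 (1 kb, score 9.45).

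On the TKO side, chromosome 11 held 17 of 280 autosomal TKO domains and the segment 4, together 7.5% (Wilson 95% interval 4.96% to 11.2%), where these places make up 6.92% of the autosomal length. By covered bases their share was 3.81%. On the control side the same places held 22.7% of the covered bases. The sides exclude each other, so TKO domains can lie only where the control side does not. Of the length outside the control side, TKO domains covered 9.53% on chromosome 11, 0.677% in the segment and 0.547% on the other autosomes. On chromosome 11 that length was 3.39 Mb, with 0.323 Mb of TKO domains. A single domain, 3000001 to 3118000, gave 118 kb of the latter. All 21 TKO domains of chromosome 11 and the segment touched a control domain end to end, 14 of the 17 on chromosome 11 at both ends. Room to stand apart differed, as the median gap between control domains was 23 kb on chromosome 11. It was 157 kb in the segment and 518.5 kb on the other autosomes. On the other autosomes 134 of 259 TKO domains (51.7%, interval 45.7% to 57.8%) touched a control domain. The 125 that stood apart were a median of 429 kb and at most 2566 kb from the nearest control domain, and were longer at the median, 24 kb, than the 14.5 kb of those that touched.

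The TKO side covered 0.418% of the bins of the autosomes without chromosome 11 and the segment. Over the 17 autosomes other than 6 and 11 it ran from 0.115% on chromosome 14 to 1.46% on chromosome 17, with a median of 0.238%. Chromosomes 7 (0.993%) and 13 (0.825%) followed chromosome 17. Few domains carried much of this length. The 2 longest, chromosome 3, 8505001 to 9415000 (910 kb, score -3.05) and chromosome 17, 24438001 to 24986000 (548 kb, score -3.16), made up 14.8% of the autosomal TKO bases, and the 28 longest, of 85 kb or more, 52.0%. Next in length were chromosome 13, 3367001 to 3595000 (228 kb, score -3.05), chromosome 4, 146776001 to 146994000 (218 kb, score -5.64), and chromosome 5, 110313001 to 110511000 (198 kb, score -3.07). On chromosome 11 the longest was 3000001 to 3118000 (118 kb, score -29.4), and the other 16 were 22 kb or shorter.

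Among TKO domains the scores farthest toward TKO were in the domains of up to 10 kb. The 30 domains of up to 3 kb had a median score of -15.9, the 59 of over 3 to 10 kb -5.78, the 122 of over 10 to 30 kb -3.78, the 45 of over 30 to 100 kb -3.85 and the 24 of over 100 kb -3.62. Above 10 kb the medians did not follow length. The lowest autosomal scores were at chromosome 2, 22444001 to 22445000 (1 kb, score -54.9), chromosome 5, 15197001 to 15198000 (1 kb, score -43.6) and chromosome 9, 35112001 to 35117000 (5 kb, score -38.2). The domain at the start of chromosome 11 was long and low in score at once.

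**Figure D4:**
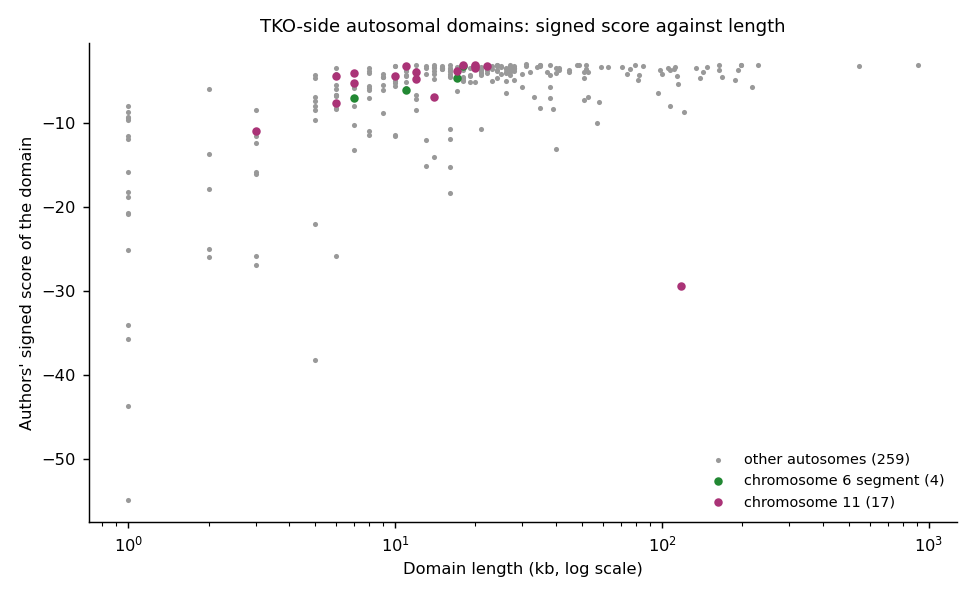
Signed score given by the authors (y axis, no unit stated) against length in kb (x axis, log scale) for the 280 autosomal TKO-side domains; each point is a domain, with chromosome 11 and the chromosome 6 segment in colour. Most domains over 10 kb lie close to -3.00, the highest TKO score, and the coloured point at -29.4 is the 118 kb domain at the start of chromosome 11.

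Some TKO domains lay in groups. With gaps of up to 500 kb, 82 of the 280 fell into 35 groups, 8 of which held 3 or more domains. The largest were 5 domains in chromosome 4, 146356001 to 147228000, covering 325 kb, 4 domains in chromosome 13, 61815001 to 62853000, covering 462 kb, and 4 domains in chromosome 7, 66642001 to 67793000, covering 381 kb. The first megabase after position 3000001, where the sequence of most mouse chromosomes begins next to the centromere, held 13 TKO domains on 10 autosomes, of which those on chromosomes 6, 11, 17 and 18 began at that base. TKO coverage of this megabase over all autosomes was 4.45%, against 0.404% of all autosomal bins, and control coverage was 15.5%, against 28.5%.

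The TKO list was set beside the lists of DNMT1 knockout (KO) cells and of TDG knockdown (KD) cells, each against its control in serum. DNMT1 copies DNA methylation to the new strand after replication, and TDG is a glycosylase that removes oxidised methylcytosine. The TDG pair has the same strain label, 129/Ola, and a control sample of its own. The DNMT1 KO sample is labelled 129S6/C57B6, and whether these lists share any control library is not given in the sources used here. Of the autosomal TKO domains, 87 (31.1%, Wilson 95% interval 25.9% to 36.7%) met a DNMT1 KO domain, a side that covers 3.63% of autosomal bins, and 50 (17.9%, interval 13.8% to 22.8%) met a TDG control domain, a side that covers 0.274%. By bases, 32.7% of the TKO side lay in the DNMT1 KO side and 14.5% in the TDG control side. As a share of the other list, 87 of 1470 DNMT1 KO domains (5.92%) and 56 of 426 TDG control domains (13.1%) met a TKO domain.

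The same TKO domains were often involved in the overlaps with the DNMT1 KO side and with the TDG control side. Of the 50 that met the TDG control side, 46 also met the DNMT1 KO side. These 46 had a median length of 39.5 kb and a median score of -6.85, and the 189 that met neither had 15 kb and -4.04. A longer domain meets another more readily. The domain at chromosome 4, 146776001 to 146994000, had the same edges in all 3 lists. It scored -5.64 in the TKO list, -26.3 toward DNMT1 KO and 8.41 toward TDG control. No common scale of the 3 lists is given, so the sizes of these scores are not compared. Of the 280 TKO domains, 28 had the edges of a DNMT1 KO domain and 14 those of a DNMT1 control domain, and 16 had the edges of a TDG control domain and 10 those of a TDG KD domain. Identical edges thus occurred with either side of both lists, at 3.57% to 10.0% of the TKO domains. Among the 1989 TKO control domains, which were longer, these shares ran from 0.302% to 1.11%.

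The 2 longest TKO domains were not of this kind. The 910 kb domain on chromosome 3 shared 0 kb with the DNMT1 KO side and 9 kb with the TDG control side, and the 548 kb domain on chromosome 17 shared none with either. In the DNMT1 control side lay 29.5% of the former and 25.4% of the latter. The chromosome 17 domain lay whole in the TDG KD side, which covers 30.5% of autosomal bins. Those on chromosome 5 (198 kb), chromosome 13, 62656001 to 62853000 (197 kb), and chromosome 7, 50313001 to 50506000 (193 kb), lay whole in the DNMT1 KO side. That at chromosome 13, 61815001 to 61983000 (168 kb), lay whole in the DNMT1 control side and in the TDG KD side. On chromosome 11, 2 of 17 TKO domains met the DNMT1 KO side and 1 met the TDG control side. In the segment 0 of 4 met either, which with 4 domains allows a share of up to 49.0% by the Wilson interval.

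**Figure D5:**
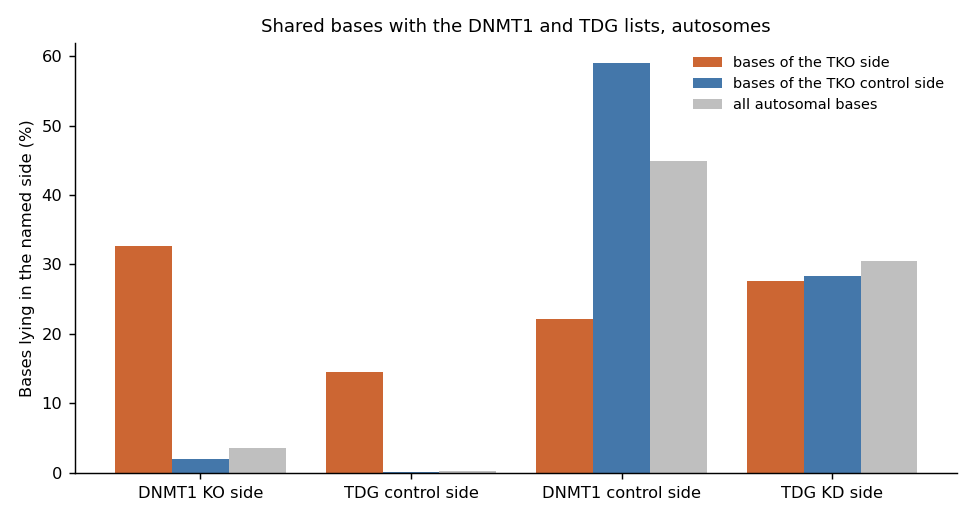
Percent of autosomal bases of the TKO side and of the TKO control side that lie in each side of the DNMT1 and TDG lists (x axis), beside the percent of all autosomal bases in that side (grey). TKO bases lie in the DNMT1 KO side at 32.7% and in the TDG control side at 14.5%, where all autosomal bases do so at 3.63% and 0.274%.

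Away from chromosome 11 and the chromosome 6 segment, the control side lay more in the DNMT1 control side than all bases did. On the other autosomes 62.6% of its bases lay in the DNMT1 control side, which covered 44.9% there, and 1.15% in the DNMT1 KO side, which covered 3.53%. With the TDG KD side, which covered 29.3% of those autosomes, it shared 22.8% of its bases. On chromosome 11 these shares were those of the chromosome as a whole, as nearly all of it is control side. There 47.1% of the control-side bases lay in the DNMT1 control side (coverage 46.6%), 5.51% in the DNMT1 KO side (5.68%) and 50.2% in the TDG KD side (50.4%). Of the DNMT1 KO bases on chromosome 11, 94.3% lay in the TKO control side, against 7.69% of those on the other autosomes. In the segment, 45.9% of the control-side bases lay in the DNMT1 control side, which covered 44.4% there.

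Neither other serum list from a mutant showed chromosome 11 covered to the same degree. The TDG KD side covered 50.4% of it, where the other autosomes ran from 17.2% to 41.4%, and the DNMT1 control side 46.6%, within the range of 36.2% to 50.5%. For the chromosome 6 segment these sides covered 39.8% and 44.4%, against 32.7% and 39.7% of the rest of chromosome 6. Both chromosomes also stood out in the list of serum against 2i medium. Its 2i side covered 66.9% of the segment and 68.6% of the rest of chromosome 6, against 11.1% of the other autosomes. Its serum side covered 46.8% of chromosome 11, where the other autosomes ran from 2.16% to 46.2%. These values come from lists made separately and were not tested against each other.

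TKO domains met the 2i side of the list of serum against 2i medium in 146 of 280 cases (52.1%, Wilson 95% interval 46.3% to 57.9%), and 31.0% of their bases lay in that side, which covers 12.0% of autosomal bins. In turn, 156 of the 5984 autosomal 2i domains (2.61%) met a TKO domain. The 2i side was also met by 926 of 1989 TKO control domains (46.6%), with 14.4% of their bases in it. On the other autosomes 12.3% of the control-side bases lay in the 2i side, which covered 11.1% there. In the chromosome 6 segment 67.6% did so, against a coverage of 66.9%. These counts of domains do not adjust for length, with medians of 217 kb for control and 16 kb for TKO domains. A serum domain was met by 66 TKO domains (23.6%), where the serum side covers 30.7% of autosomal bins. Whether the serum library of that list is also a control of another list is not given in the sources used here.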

How the data were processed

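Native H2A.X ChIP-seq gave 1 library each of TKO control and TKO cells. The submitters' processing notes name Bowtie2 2.0.6 and the build mm9. The sources used here do not give the domain caller, its settings, read depth or any scaling for it. The deposited list holds domains on a 1 kb grid, each with a mark and 2 scores; both are the authors' deposited scores with no unit stated, used here to describe and rank domains within the list. The list has no header: the first library was taken to be the control from the order in the list's name.

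Coverage, lengths, gaps, 5 Mb windows and overlaps (at least 1 base) were computed in Python 3.11.15 with pandas 2.3.3 on 1 kb bins; spans run from the first to the last position that any of the 6 lists reaches, which is position 1 on 9 autosomes. Domains belong to the chromosome 6 segment by their midpoint, and bases by position. Wilson 95% intervals are from scipy 1.17.1. The functions were checked on simulated domains. With 1 library per condition no test was run. Members, places and classes were chosen with earlier results of these data known. Regions named are the 5 longest and 5 highest-scoring per side, the longest per autosome, gaps of 100 kb or more on chromosome 11 and in the segment, and domains at the segment's edges; a few of each are printed, and groups of TKO domains, the first megabase and chromosome 8 were added after seeing the data. Coordinates are mm9, counted from 1. An mm9 annotation was not used here, so genes are not named and no sequence is printed.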

Additional observations from a re-analysis of the deposited data

How the results depend on the processing

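Of 51 alternative values, 32 stayed within the counting error of the reported value, or within 1.5 times of a count. None changed sign, which only the median signed scores could do, as counts and percentages cannot be negative. Merging domains within 10 kb moved none. Restricting each side to the 50% of its domains that scored farthest toward it gave 1036 control and 157 TKO domains by construction, control coverage of 94.6% on chromosome 11, 8.0% in the chromosome 6 segment and 5.87% on the other autosomes, TKO coverage of 0.117%, a median control score of -0.35 on the other autosomes, and 40.7% of TKO domains meeting DNMT1 KO domains. Domains of 10 kb or more gave a TKO coverage of 0.403% and 13.4% of TKO domains meeting the TDG control side. With the segment widened by 5 Mb at each edge its coverage was 78.3% and that of the other autosomes 23.6%; narrowed by 5 Mb at each edge these were 85.3% and 23.9%. With domains scoring within 0.05 of 0 taken out of both the cover and the length it is divided by, coverage was 97.0% on chromosome 11 and 23.6% on the other autosomes; 11 such domains, 7.12 Mb, lie on chromosome 11. Chosen after seeing the data, spans from position 1 gave 94.8% and 23.4%, and domains of over 200 to 500 kb a median control score of -0.67 on the other autosomes. The counting error of coverage treats 1 kb bins as independent, which neighbouring bins are not, so it is too narrow and small moves pass it. No paired analysis was possible because control and TKO are single libraries with no shared number. What sequencing depth limits cannot be told, as the list gives no reads.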

Other observations

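Outside the autosomes, X held 73 control domains covering 84.5% and 24 TKO domains covering 0.523%. Its control domains had a median score of -0.64 and a length-weighted mean of -0.68, beside length-weighted means of -0.64 on the other autosomes and -0.25 on chromosome 11. The TKO domains of X had a median length of 24 kb and a median score of -5.87, and the longest was X, 121223001 to 121342000 (119 kb, score -15.6). On Y, 8 TKO domains covered 3.43%, and most of the control cover was a single domain with a score of 0, 2903001 to 15902000. This domain of 12999 kb is part of the control coverage of 32.4% over all chromosomes. Whether either library had reads there cannot be told, as the list gives none. Mitochondrial DNA was a single TKO domain of 16 kb with a score of -138, the lowest in the list.

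The second score, divided by the number of 1 kb bins of a domain, had a median of 0.623 in control domains of chromosome 11, 0.536 in the chromosome 6 segment, 0.550 on the other autosomes and 0.512 on X. This score has no sign, and its median in TKO domains was 0.654 on the autosomes, 0.711 on chromosome 11, 0.536 in the segment and 0.490 on X, so a higher value is no lean toward the control.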
